A study of Mus musculus with 6 samples.

Results

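The proteasome genes of mouse blastocysts were compared between embryos cultured with oviductal extracellular vesicles (EVs) from women with endometriosis (oEV-EMT) and embryos cultured with EVs from women without it (oEV-ctrl). Members were the protein-coding rows of the expression table whose GENCODE symbol begins with *Psm*, a letter from a to g and a number, which gave 50 genes of 21897 protein-coding rows and 55774 rows in all. Of these, 49 encode a subunit, an assembly chaperone or a regulator of the proteasome, and *Psmc3ip* shares only the letters of the symbol, being a partner protein in meiotic recombination. The rule used names and no measured value.

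Each group held 3 libraries, and each library was poly(A)-selected RNA from a pool of 10 blastocysts. All embryos were labelled wild type (WT), came from ICR mice, an outbred stock, as two-cell embryos, and were grown to blastocysts in CZB medium with human Fallopian tube EVs. For the oEV-ctrl group, the sample labels name uterine fibroids as the donors' condition, while the study's methods give another gynaecological condition, so the control donors also had a disease. No library of embryos grown without EVs was analysed here. Because the labels do not say that the pools came from separate cultures or EV donors, p-values measure only the spread between these libraries, which may be partly technical. In a pool, fewer cells of a type and less RNA per cell cannot be told apart.

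The 26S proteasome is the protease that degrades proteins tagged with ubiquitin. Its 20S core is a barrel of stacked rings, in which the outer α subunits form the gate and the inner β subunits include the catalytic sites (*Psmb5*, *Psmb6* and *Psmb7*). Interferon-responsive cells exchange these for inducible subunits (*Psmb8*, *Psmb9* and *Psmb10*), which gives the immunoproteasome, and thymic epithelium uses *Psmb11*. The 19S regulatory particle caps the core: its base holds the ATPases *Psmc1* to *Psmc6* that unfold substrates, and its lid holds the deubiquitinase *Psmd14*. Dedicated chaperones assemble both parts, and other activators (*Psme1* to *Psme4*) can replace the 19S cap. In early embryos the proteasome also clears maternal proteins as the embryo takes over its own gene expression.

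Across all genes, 11924 passed the filter of at least 1 FPKM (fragments per kilobase of transcript, relative to the fragments of the library) in at least 3 libraries. By limma with Benjamini-Hochberg adjustment, 0 of them passed an adjusted p of 0.05 with a log2 fold change of at least 1 in size, and the lowest adjusted p was 0.0934. At an unadjusted p of 0.05, 1527 genes (12.8%) were higher and 304 (2.55%) lower in oEV-EMT, and the median log2 fold change of all tested genes was 0.17. This excess of higher genes depended on the scaling between libraries, since median-of-ratios scaling gave 773 higher and 771 lower, upper quartile scaling 536 and 972, and scaling to a total of 1000000 gave 1850 and 182. Sums of FPKM ran from 1293175 to 1551567 per library, of which 1 unannotated entry took 15.3% to 31.5%. One FPKM over 1 kilobase of transcript was worth 18.9 to 39.4 fragments, with oEV-ctrl 1 the shallowest and oEV-EMT 1 the deepest. Values relative to the median of all tested genes are given below as relative log2 fold changes.

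Proteasome transcripts were abundant in every library. The 50 members summed to 8121, 9846 and 9857 FPKM in oEV-EMT 1, 2 and 3 and to 7920, 8404 and 8837 FPKM in oEV-ctrl 1, 2 and 3. These were 0.628%, 0.728% and 0.727% of the library sum in oEV-EMT and 0.510%, 0.624% and 0.640% in oEV-ctrl, so the groups overlapped on both scales. The filter kept 48 members, and *Psmb8* and *Psmb11* did not pass it. Of the 48, 5 were higher in oEV-EMT at an unadjusted p of 0.05 (*Psmb9*, *Psmb10*, *Psmg1*, *Psmd13* and *Psmd9*) and 0 were lower, that is 10.4% beside 12.8% of all genes for higher and 0 beside 2.55% for lower. The lowest oEV-EMT value exceeded the highest oEV-ctrl value in 8 members (16.7%) against 18.1% of all tested genes, and the reverse held in 0 members against 4.34%. The share of members higher was thus near the share of all genes. No member passed an adjusted p of 0.05 in limma, with adjusted p from 0.157 to 0.996. Under median-of-ratios scaling 3 members were higher and 0 lower at an unadjusted p of 0.05, beside 6.47% and 6.46% of all genes. Under upper quartile scaling 3 and 3 were, beside 4.49% and 8.13%, and under scaling to a fixed total 9 and 0, beside 16.7% and 1.64%.

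The median relative log2 fold change of the 48 members was 0.04, and 26 members had a positive and 22 a negative relative value. By role, the median relative value was -0.18 in the 20S α ring, 0.04 in the constitutive β ring, -0.09 in the 19S base, -0.02 in the 19S lid, 0.22 in the assembly chaperones, 0.08 in the activators and inhibitor, and 0.75 in the 2 inducible β subunits that passed the filter. With the α and constitutive β genes of the core pooled, the median was -0.14 over 15 genes, and for the whole regulatory particle it was -0.09 over 17 genes. Leaving out each library in turn, the assembly chaperones stayed between 0.12 and 0.33 and the 2 inducible β subunits between 0.68 and 0.86. The other values were small and moved when single libraries were left out. Without oEV-EMT 1 they were 0.0030 for the core, 0.014 for the regulatory particle, 0.12 for the lid and -0.03 for the α ring, and without oEV-EMT 3 the α ring was at -0.33 and the base at 0.02. These medians describe the members and were not tested, and genes of 1 complex are not replicates of a condition.

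**Figure D1:**
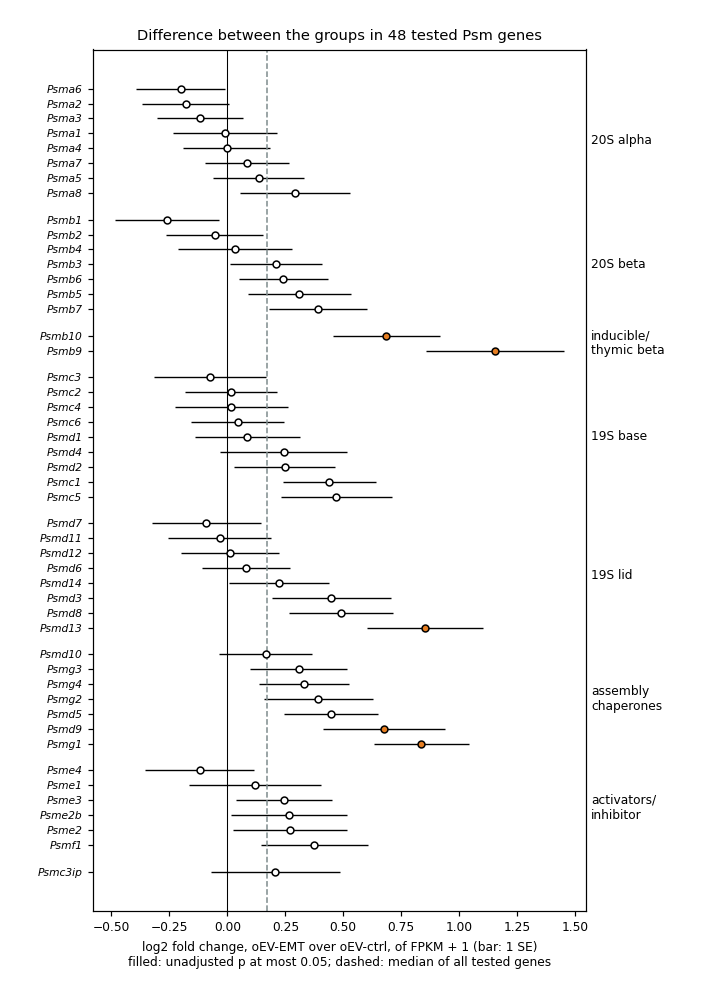
Log2 fold change (oEV-EMT over oEV-ctrl, of FPKM + 1, bars 1 SE from limma) of the 48 tested *Psm* genes by role, with filled points at an unadjusted p of at most 0.05 and a dashed line at 0.17, the median of all tested genes. The α and constitutive β genes lie between -0.26 and 0.39, while *Psmb9* at 1.15 stands farthest to the right.

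The inducible catalytic subunits held the member with the highest fold change. *Psmb9* (ENSMUSG00000096727, chromosome 17, 34181987 to 34187764 on GRCm38, minus strand) encodes the inducible subunit that takes the place of *Psmb6*. It was measured at 11.6, 21.3 and 12.8 FPKM in oEV-EMT 1, 2 and 3 and at 7.40, 3.98 and 7.41 FPKM in oEV-ctrl 1, 2 and 3. Each oEV-EMT library lay above each oEV-ctrl library, with oEV-EMT 2 the highest and oEV-ctrl 2 the lowest. The means were 15.2 ± 5.27 and 6.26 ± 1.98 FPKM (SD, n = 3). The log2 fold change was 1.15 (SE 0.30), with an unadjusted p of 0.00296 and an adjusted p of 0.164 by limma. Its span overlaps that of *Tap1*, the peptide transporter gene on the opposite strand, by 212 bases. Since the strand setting of the authors' counting is not given in the sources used here, reads of the overlap cannot be told apart, and *Tap1* averaged 1.43 FPKM. The part of *Tap1* reads in the difference was not tested.

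*Psmb10* (ENSMUSG00000031897, chromosome 8, 105935735 to 105938444, minus strand) encodes the inducible partner of *Psmb7*. Its values were 21.2, 17.1 and 25.3 FPKM in oEV-EMT and 13.5, 14.2 and 10.5 FPKM in oEV-ctrl, replicates in order. The groups did not overlap, and the closest libraries were oEV-EMT 2 and oEV-ctrl 2. The log2 fold change was 0.69 (SE 0.23), with an unadjusted p of 0.0134 and an adjusted p of 0.220 by limma. Under median-of-ratios scaling the log2 fold change was 0.50 (unadjusted p = 0.0702) and under upper quartile scaling 0.43 (unadjusted p = 0.110), while its value relative to all genes was 0.51 as deposited and 0.49 and 0.48 under these scalings. The log2 fold change was 0.55 without oEV-EMT 3 (unadjusted p = 0.0510) and 0.56 without oEV-ctrl 3 (unadjusted p = 0.0657).

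The third inducible subunit was close to 0 in every library. *Psmb8*, the inducible partner of *Psmb5*, was listed at 0 FPKM in all oEV-EMT libraries and at 0.149, 0 and 0.0171 FPKM in oEV-ctrl 1, 2 and 3. *Psmb11*, the thymic subunit, did not exceed 0.0721 FPKM. Of the inducible set, *Psmb9* and *Psmb10* were therefore the members with transcripts above 1 FPKM in these blastocysts, at levels far under those of the constitutive subunits.

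The constitutive catalytic subunits were abundant and overlapped between the groups. *Psmb6* was measured at 567, 724 and 615 FPKM in oEV-EMT and at 576, 451 and 587 FPKM in oEV-ctrl, for a log2 fold change of 0.24 (SE 0.19). *Psmb7* had 463, 497 and 606 FPKM against 313, 464 and 424 FPKM, where oEV-EMT 1 lay just under oEV-ctrl 2, and a log2 fold change of 0.39 (SE 0.21, unadjusted p = 0.0922 by limma). *Psmb5* had 195, 218 and 165 FPKM against 186, 119 and 166 FPKM, and its log2 fold change was 0.31 (SE 0.22). None of the 3 genes separated the groups.

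The exchange of inducible for constitutive subunits was compared as a ratio within each library, which the scaling between libraries cannot change on the FPKM scale. *Psmb9* stood at 2.05%, 2.94% and 2.08% of *Psmb6* in oEV-EMT and at 1.29%, 0.882% and 1.26% in oEV-ctrl, with means of 2.35% ± 0.506 and 1.14% ± 0.227 (SD, n = 3). All oEV-EMT ratios were above all oEV-ctrl ratios. On the log2(FPKM + 1) scale the ratio differed by 0.91, with p = 0.1 by an exact two-sided permutation test, the smallest p that 3 against 3 libraries allow, and 0.15 after adjustment over 3 pairs. *Psmb10* stood at 4.59%, 3.43% and 4.17% of *Psmb7* in oEV-EMT and at 4.30%, 3.06% and 2.48% in oEV-ctrl. These ratios overlapped, and their log2 difference of 0.29 had an exact permutation p of 0.3. The ratio of *Psmb8* to *Psmb5* was the third pair of the adjustment, with a log2 difference of -0.38 and an exact permutation p of 0.1. It was not interpreted, since *Psmb8* was at or near 0.

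**Figure D2:**
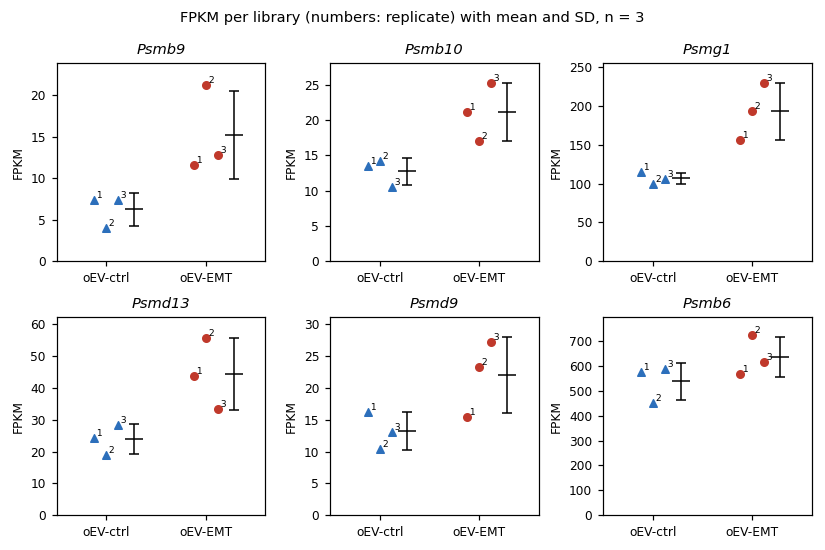
FPKM of 6 *Psm* genes in each library (points, numbered by replicate) with the mean and SD of the 3 libraries per group. The groups do not overlap in *Psmb9*, *Psmb10*, *Psmg1* and *Psmd13*, and they overlap in *Psmd9* and in *Psmb6*, the constitutive partner of *Psmb9*.

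The upstream sequence of 5 members is shown, to set the inducible *Psmb10* and the chaperones *Psmg1* and *Psmd9* beside the constitutive *Psmb5* and *Psmb6*. Each run ends at the base before the RefSeq transcript start on GRCm38.p6, except that of *Psmb10*, which ends before the first exon of GENCODE M21, and the run of *Psmb5* includes 27 bases of such an exon. Capitals mark the searched motifs, which were TGACNNNGC (the core of the antioxidant response element bound by NFE2L1 and NFE2L2), CCAAT (the NF-Y box) and the core of the interferon-stimulated response element (GAAA, then any 2 bases, then GAAA), each on both strands.
Psmb5 (chr14:54617996-54618245, minus strand): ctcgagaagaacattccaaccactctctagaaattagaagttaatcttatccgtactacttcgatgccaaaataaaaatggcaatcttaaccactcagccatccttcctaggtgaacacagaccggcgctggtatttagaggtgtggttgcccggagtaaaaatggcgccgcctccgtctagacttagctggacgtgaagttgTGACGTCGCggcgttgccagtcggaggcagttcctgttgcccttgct
Psmb6 (chr11:70525107-70525356, plus strand): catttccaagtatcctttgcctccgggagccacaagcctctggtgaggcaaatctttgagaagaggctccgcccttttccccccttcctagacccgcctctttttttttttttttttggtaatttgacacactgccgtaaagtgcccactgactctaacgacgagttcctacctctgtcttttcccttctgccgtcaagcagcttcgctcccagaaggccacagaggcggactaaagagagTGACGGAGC
Psmb10 (chr8:105938445-105938642, minus strand): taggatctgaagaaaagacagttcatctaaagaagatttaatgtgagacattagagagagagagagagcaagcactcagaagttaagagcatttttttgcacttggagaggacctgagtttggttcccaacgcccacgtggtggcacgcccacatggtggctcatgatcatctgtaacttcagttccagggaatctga
Psmd9 (chr5:123227940-123228189, plus strand): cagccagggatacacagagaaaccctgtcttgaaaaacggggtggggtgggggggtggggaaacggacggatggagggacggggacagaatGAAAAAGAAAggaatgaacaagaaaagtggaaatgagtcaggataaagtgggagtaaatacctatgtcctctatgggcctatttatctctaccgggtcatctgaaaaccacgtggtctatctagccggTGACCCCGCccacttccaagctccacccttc
Psmg1 (chr16:95990961-95991210, minus strand): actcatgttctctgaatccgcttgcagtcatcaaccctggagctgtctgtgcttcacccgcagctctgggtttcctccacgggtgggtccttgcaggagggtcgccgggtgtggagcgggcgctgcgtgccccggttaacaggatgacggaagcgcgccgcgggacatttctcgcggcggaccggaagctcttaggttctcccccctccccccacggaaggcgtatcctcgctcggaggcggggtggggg
*Psmb6* carries TGACNNNGC with its first base 9 bases before the start, *Psmd9* at 31 bases and *Psmb5* at 47 bases, each on the gene strand. *Psmd9* also holds the interferon core 159 bases before its start. In the windows of *Psmb10* and *Psmg1*, none of the searched letters were found.

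RefSeq promoters were matched for 42 members, of which 40 had been tested, and the 250 bases before each start were searched. TGACNNNGC was found in 5 of the 40 (*Psmb5*, *Psmb6*, *Psmc6*, *Psmd12* and *Psmd9*), or 12.5%, beside 11.5% of 27025 genes with a promoter. CCAAT was found in 14 of 40 (35%) beside 37.5% of all, and the interferon core in 3 of 40 (7.5%), *Psmb3*, *Psmd4* and *Psmd9*, beside 3.46%. By class, over all 42 members with a promoter, CCAAT stood in 5 of 7 α ring genes (*Psma1*, *Psma2*, *Psma3*, *Psma6* and *Psma7*). It stood in 3 of 8 genes of the base, 2 of 4 inducible or thymic β genes and 1 of 4 constitutive β genes. The lid, the assembly chaperones and the activators and inhibitor had it in 1 of 6 genes each, and *Psmc3ip* had it too. *Psmb9* has CCAAT on the opposite strand, 8 bases before the RefSeq start, in a window that lies inside exons of its longer GENCODE transcripts and is not printed. Of the 5 members at an unadjusted p of 0.05, *Psmd9* alone holds either the antioxidant or the interferon motif in this window. A match is a string of letters and not a measured binding site.

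The α ring, which gates the core, showed little difference between the groups. Its most abundant member, *Psma1*, was also the most abundant of all 50, at 693, 906 and 1093 FPKM in oEV-EMT and 722, 1021 and 951 FPKM in oEV-ctrl. The groups overlapped, the log2 fold change was -0.01 (SE 0.22), and its sign turned to 0.08 when libraries were scaled to a fixed total. *Psma2*, *Psma3*, *Psma4*, *Psma5*, *Psma6* and *Psma7* ranged from 110 to 434 FPKM over all libraries, with log2 fold changes from -0.20 (*Psma6*) to 0.14 (*Psma5*). Of the 8 α genes, 7 lay under the median of all genes. None separated the groups, beside 18.1% of all tested genes with oEV-EMT above and 4.34% with oEV-EMT below. The lowest, *Psma8*, which replaces *Psma7* in the germ line, was present at 3.02, 2.31 and 4.30 FPKM in oEV-EMT and 2.05, 2.59 and 2.50 FPKM in oEV-ctrl, and these values overlapped.

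The structural β subunits overlapped between the groups too. *Psmb2*, the most abundant of them, had 677, 788 and 1013 FPKM in oEV-EMT and 725, 962 and 870 FPKM in oEV-ctrl, for a log2 fold change of -0.06 (SE 0.21). *Psmb1*, the least abundant, had 119, 73.5 and 80.1 FPKM against 113, 107 and 101 FPKM, and at -0.26 (SE 0.22) it had the lowest log2 fold change of the 48 members. In *Psmb1* the library oEV-EMT 1 was the highest of all 6 and the other two oEV-EMT libraries were the lowest. Without oEV-EMT 1 its log2 fold change was -0.47 (unadjusted p = 0.0349 by limma), without oEV-EMT 2 -0.12, and under upper quartile scaling -0.52 (unadjusted p = 0.0465). *Psmb3* (log2 fold change 0.21) and *Psmb4* (0.03) overlapped as well.

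Reads of several core genes can be shared with processed pseudogenes. Stretches of 50 bases shared with another row covered at least 10% of the stretches of 11 members. *Psmb5* shared 46.8% of its stretches with *Gm3375*, and *Psma3* shared 15.4% with *Gm13835*, which was itself listed at 363 FPKM beside 119 FPKM for *Psma3*. Summed with their copies, the log2 difference was 0.25 for *Psmb5* and -0.22 for *Psma3*, so the direction of neither turned. *Psme2* and its intronless copy *Psme2b* also share sequence, at 68.7% of the stretches of *Psme2b*, and their separate levels are uncertain. *Psmb9*, *Psmb10*, *Psmg1*, *Psmd13* and *Psmd9* were not among these 11 genes. Pseudogene rows with matching symbols, such as *Psmb6-ps2*, stayed at or under 0.405 FPKM.

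In the 19S base, 1 of 9 genes (11.1%) separated the groups with higher oEV-EMT values, beside 18.1% of all tested genes. This was *Psmc1*, an ATPase of the unfolding ring, with 178, 243 and 182 FPKM in oEV-EMT against 147, 134 and 160 FPKM in oEV-ctrl. Its log2 fold change was 0.44 (SE 0.20), with an unadjusted p of 0.0522 and an adjusted p of 0.330 by limma. *Psmc5* was similar in size at 0.47 (SE 0.24), but its groups overlapped at 107, 139 and 87.5 FPKM against 86.8, 61.8 and 89.5 FPKM. The other ATPases, *Psmc2*, *Psmc3*, *Psmc4* and *Psmc6*, had log2 fold changes from -0.08 to 0.04. *Psmc6* was the most abundant gene of the base, with 193, 222 and 265 FPKM against 191, 247 and 219 FPKM, and its small fold change turned to -0.15 under median-of-ratios scaling.

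The scaffold subunits of the base were less abundant than the ATPases. *Psmd2* had 56.5, 54.2 and 40.6 FPKM in oEV-EMT and 46.5, 35.7 and 44.4 FPKM in oEV-ctrl, for a log2 fold change of 0.25 (SE 0.22) and overlapping groups. *Psmd1*, the other large scaffold, ranged from 49.8 to 76.5 FPKM over the 6 libraries, with a log2 fold change of 0.09. The ubiquitin receptor *Psmd4* ranged from 124 to 262 FPKM, and the extremes were oEV-ctrl 2 and oEV-EMT 2. Its log2 fold change of 0.24 was smaller than its SE of 0.27.

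Of the 8 lid genes, 1 (12.5%) was higher in oEV-EMT at an unadjusted p of 0.05, beside 12.8% of all tested genes. *Psmd13* (ENSMUSG00000025487, chromosome 7, 140881968 to 140898643, plus strand), a scaffold subunit of the lid, was measured at 43.9, 55.8 and 33.3 FPKM in oEV-EMT and at 24.1, 19.03 and 28.5 FPKM in oEV-ctrl. The groups did not overlap, with oEV-EMT 3 and oEV-ctrl 3 the closest. The means were 44.3 ± 11.3 and 23.9 ± 4.74 FPKM (SD, n = 3), and the log2 fold change was 0.85 (SE 0.25, unadjusted p = 0.00636, adjusted p = 0.178 by limma). A processed pseudogene on the same strand, *Gm15542*, lies within its span and averaged 53.3 FPKM, above *Psmd13* itself, and *Sirt3* overlaps its 5′ end on the opposite strand. The part of these rows in the difference was not tested.

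The remaining 7 lid genes overlapped between the groups. *Psmd8*, the most abundant, had 344, 409 and 480 FPKM in oEV-EMT and 307, 224 and 353 FPKM in oEV-ctrl, for a log2 fold change of 0.49 (SE 0.22, unadjusted p = 0.0525 by limma). Only oEV-EMT 1 fell within the oEV-ctrl range. *Psmd3*, the least abundant, had 27.7, 33.7 and 22.2 FPKM against 22.5, 14.4 and 24.2 FPKM and a log2 fold change of 0.45 (SE 0.26). The deubiquitinase *Psmd14* ranged from 266 to 429 FPKM with a log2 fold change of 0.22, and *Psmd6*, *Psmd7*, *Psmd11* and *Psmd12* lay between -0.09 and 0.08.

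Among the assembly chaperones, 6 of 7 genes lay above the median of all genes, 4 separated the groups with higher oEV-EMT values, beside 18.1% of all tested genes, and 2 were higher at an unadjusted p of 0.05, beside 12.8%. Separation depended on the scaling, since over all 48 members it held for 8 as deposited, 4 under median-of-ratios and 3 under upper quartile scaling. *Psmg1* (ENSMUSG00000022913, chromosome 16, 95979933 to 95990960, minus strand) pairs with *Psmg2* to build the α ring. It was measured at 156, 194 and 230 FPKM in oEV-EMT and at 114, 99.6 and 106 FPKM in oEV-ctrl. Each oEV-EMT library was clear of the oEV-ctrl range, which was narrow. The means were 193 ± 36.8 and 107 ± 7.40 FPKM (SD, n = 3). The log2 fold change of 0.84 (SE 0.20) had the lowest p of the 48 members, 0.0020 unadjusted and 0.157 adjusted by limma.

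The partners of *Psmg1* had smaller differences. *Psmg2* had 57.8, 63.8 and 68.2 FPKM in oEV-EMT and 34.8, 58.3 and 53.8 FPKM in oEV-ctrl, so that oEV-EMT 1 and oEV-ctrl 2 overlapped, with a log2 fold change of 0.39 (SE 0.23). *Psmg4*, the most abundant chaperone, which works with *Psmg3*, had 188, 199 and 255 FPKM against 172, 176 and 158 FPKM and a log2 fold change of 0.33 (SE 0.19). *Psmg3* had 47.0, 54.9 and 51.0 FPKM against 46.9, 33.5 and 43.4 FPKM and a log2 fold change of 0.31 (SE 0.21). The values of *Psmg3* and *Psmg4* did not overlap between groups, although *Psmg3* in oEV-EMT 1 and oEV-ctrl 1 differed by less than 1 FPKM.

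The chaperones of the 19S base were *Psmd5*, *Psmd9* and *Psmd10*. *Psmd9* (ENSMUSG00000029440, chromosome 5, 123169413 to 123250131, plus strand) was measured at 15.5, 23.2 and 27.2 FPKM in oEV-EMT and at 16.2, 10.4 and 13.1 FPKM in oEV-ctrl. Here oEV-EMT 1 lay under oEV-ctrl 1, and the other two oEV-EMT libraries were the highest. Its log2 fold change was 0.68 (SE 0.26, unadjusted p = 0.0279, adjusted p = 0.267 by limma), and the unadjusted p became 0.120 under median-of-ratios and 0.149 under upper quartile scaling, 0.0774 without oEV-EMT 2, 0.103 without oEV-EMT 3, 0.108 without oEV-ctrl 2 and 0.0586 without oEV-ctrl 3. *Psmd5* had 59.3, 47.2 and 61.1 FPKM against 36.5, 42.6 and 42.6 FPKM, with no overlap and a log2 fold change of 0.45 (SE 0.20, unadjusted p = 0.0505). *Psmd10*, also called gankyrin, had a log2 fold change of 0.17 (SE 0.20), and its groups overlapped.

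**Figure D3:**
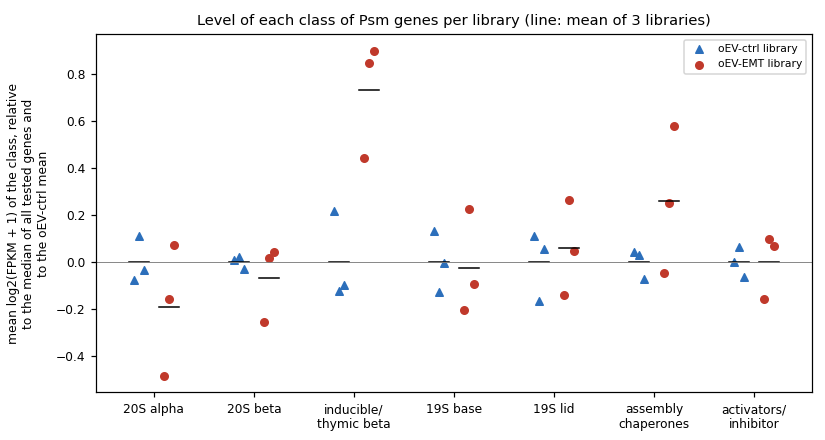
Mean log2(FPKM + 1) of the tested genes of each class in each library, relative to the median of all tested genes and to the oEV-ctrl mean, with lines at the mean of the 3 libraries of a group. The groups overlap in every class except the 2 inducible β genes, and oEV-EMT 1 is the lowest oEV-EMT library in every class.

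The alternative caps and the inhibitor overlapped between the groups in all 6 genes. *Psme2*, which forms the interferon-inducible PA28 cap with *Psme1*, had 89.8, 138 and 131 FPKM in oEV-EMT and 74.8, 117 and 105 FPKM in oEV-ctrl. Replicate 1 was the lowest in both groups, and the log2 fold change was 0.27 (SE 0.25). *Psme1* had 51.5, 48.2 and 24.9 FPKM against 42.3, 34.4 and 33.1 FPKM, and the log2 fold change was 0.12 (SE 0.28). *Psmf1*, the proteasome inhibitor PI31, had 14.9, 19.8 and 21.2 FPKM against 12.9, 12.4 and 17.1 FPKM and a log2 fold change of 0.37 (SE 0.23). The nuclear caps *Psme3* (0.24) and *Psme4* (-0.12), and the copy *Psme2b* (0.26), were within 2 SE of 0. *Psmc3ip*, the member that is no subunit, had 5.65, 12.1 and 10.8 FPKM against 8.70, 7.16 and 7.42 FPKM, so the oEV-EMT libraries held both the lowest and the highest value.

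**Figure D4:**
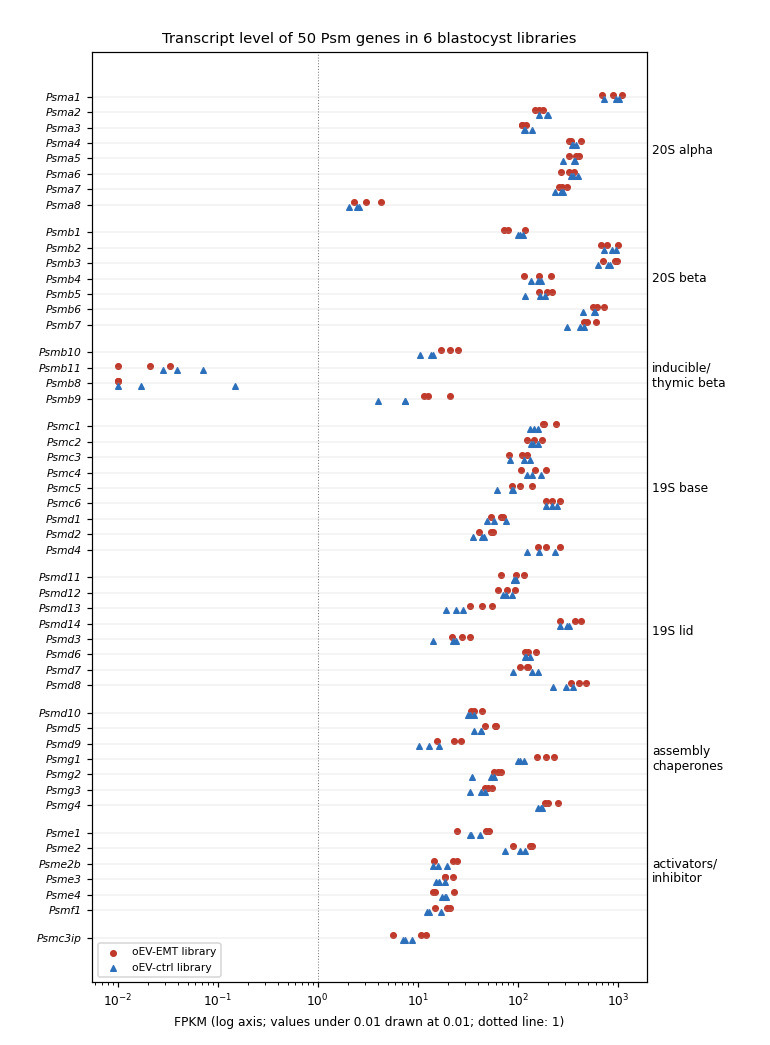
FPKM (log axis) of all 50 *Psm* genes in the 6 libraries by role, with values under 0.01 drawn at 0.01 and a dotted line at 1 FPKM. Core genes reach 1093 FPKM, the inducible *Psmb9* and *Psmb10* lie between 3.98 and 25.3 FPKM, and *Psmb8* and *Psmb11* stay under 0.15 FPKM.

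Levels differed far more between members than between groups. Within the tested α ring the mean ran from 2.79 to 898 FPKM, a ratio of 321. That low end was the germ-line *Psma8* alone, and the next lowest α gene, *Psma3*, stood at 119 FPKM. In the constitutive β ring the mean ran from 98.9 to 839 FPKM, a ratio of 8.48, and in the 19S base from 46.3 to 223 FPKM, a ratio of 4.81. The median member stood at 309 FPKM in the α ring, 461 FPKM in the constitutive β ring, 147 FPKM in the base, 109 FPKM in the lid, 48.2 FPKM in the chaperones and 18.5 FPKM among the activators and inhibitor. These levels are in FPKM, which already divides by transcript length, and the order was not compared on another scale. The ranks of the 48 members were close in all libraries, with Spearman's rho from 0.961 to 0.989 over the 15 pairs of libraries, given as a description across genes.

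The highest and the lowest values of many members fell in the same libraries. Of the 48 members, 20 had their highest value in oEV-EMT 2, 17 in oEV-EMT 3, 5 in oEV-EMT 1 and 2 in each oEV-ctrl library. The lowest value fell in oEV-ctrl 2 for 18 members, in oEV-ctrl 1 for 11 and in oEV-ctrl 3 for 2, but also in oEV-EMT 3 for 8, in oEV-EMT 1 for 7 and in oEV-EMT 2 for 2. These counts were not made over all tested genes, whose median log2 fold change was 0.17 as deposited, so they are not shown to be particular to the members. In 4 of the 6 libraries the deviation of members from their group mean went with the GC content of their transcripts, which ran from 38.4% to 58.4%. Across the 48 genes, Spearman's rho of GC with this deviation was 0.653 in oEV-ctrl 1 and -0.601 in oEV-ctrl 2, and in oEV-EMT 2 and 3 it was 0.398 and -0.275, while it was 0.0669 in oEV-EMT 1 and 0.0422 in oEV-ctrl 3. Over 11631 tested genes with a GC value it had the same sign in these 4 libraries, at 0.274, -0.358, 0.174 and -0.223. The deviations of a gene cancel within its group, so opposite signs in libraries of a group are not separate results. With transcript length in place of GC, rho over members ran from -0.232 in oEV-EMT 3 to 0.273 in oEV-EMT 1. Between the groups, rho of GC with the log2 fold change was 0.390 over members and 0.233 over all genes. *Psmb10* and *Psmb9* are among the GC-rich members, at 58.4% and 54.3%, and the part of GC content in their differences was not tested.

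**Figure D5:**
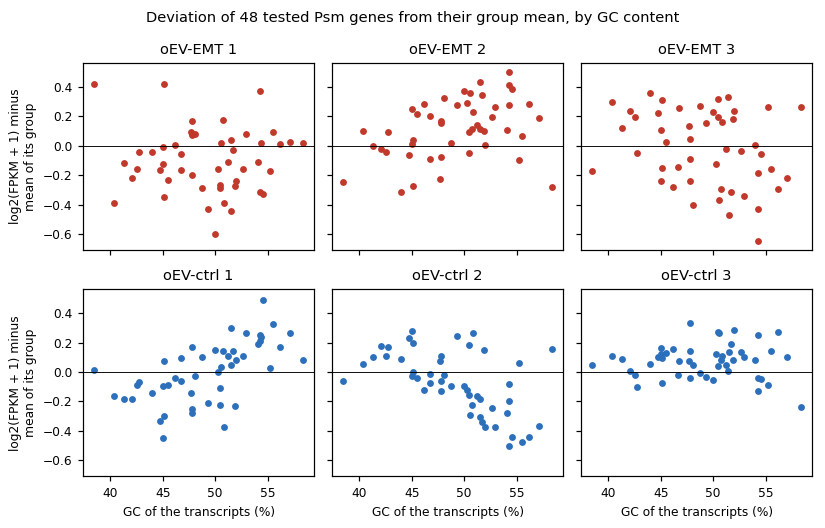
Deviation of each of the 48 tested *Psm* genes from the mean of its group (log2(FPKM + 1), y axis) against the GC content of its transcripts (%, x axis), 1 panel per library. Points climb with GC in oEV-ctrl 1 (Spearman's rho 0.653) and descend in oEV-ctrl 2 (-0.601).

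Other genes of the ubiquitin-proteasome pathway were taken from 7 lists with 50 genes, of which 42 were tested. Of these, 5 (11.9%) were higher and 2 (4.76%) lower in oEV-EMT at an unadjusted p of 0.05, beside 12.8% and 2.55% of all genes, and the median relative log2 fold change was -0.07. The 6 of them named here had adjusted p from 0.255 to 0.293 by limma. The proteasome receptor *Adrm1*, which is a subunit with another name, had 57.4, 86.8 and 61.4 FPKM in oEV-EMT and 51.4, 32.9 and 48.7 FPKM in oEV-ctrl, for a log2 fold change of 0.62. The groups did not overlap. The small subunit *Sem1* had 214.5, 186 and 218 FPKM against 240.2, 255 and 222 FPKM, each oEV-EMT library below each oEV-ctrl library, and a log2 fold change of -0.21 (unadjusted p = 0.263 by limma). The core maturation factor *Pomp* had a log2 fold change of 0.20.

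Among proteins that bind the proteasome, the deubiquitinase *Usp14* had a log2 fold change of 0.52 and the other 6 of its list did not pass. Among the shuttle receptors, which carry ubiquitin-tagged proteins to the proteasome, *Ubqln2* had a log2 fold change of -0.83, and its groups overlapped. Of the regulators of proteasome genes, *Nfe2l1*, the factor that raises proteasome transcription when the proteasome is impaired, was measured at 2.75, 1.45 and 1.34 FPKM against 2.997, 2.54 and 6.92 FPKM, with overlapping groups and a log2 fold change of -0.79. Its processing enzyme *Ngly1* had a log2 fold change of 0.57 and no overlap. *Nfe2l2*, the oxidative stress factor, had 89.3, 65.4 and 67.6 FPKM against 45.5, 52.1 and 62.8 FPKM, without overlap, and a log2 fold change of 0.46 (unadjusted p = 0.0588 by limma). Neither the 6 ubiquitin and ubiquitin-activating genes nor the 7 genes of the *Vcp* unfoldase complex held a gene at an unadjusted p of 0.05.

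The antigen processing genes that accompany the immunoproteasome in immune responses ranged widely in level. Of 10 listed, 4 passed the filter, and *Tap2*, *Tapbp*, *Erap1*, *Nlrc5* and *Irf1* were among those that did not. *Tap2*, *Erap1* and *Nlrc5* did not exceed 0.396 FPKM in any library, and *Tapbp* ranged from 0.217 to 2.05 FPKM. *Irf1*, an interferon-induced transcription factor, was measured at 0.931, 0.497 and 0.893 FPKM in oEV-EMT and at 0.127, 0.141 and 0.396 FPKM in oEV-ctrl, without overlap and with no test. *B2m*, the light chain of class I molecules, had 265, 320 and 406 FPKM against 141, 263 and 224 FPKM, with a log2 fold change of 0.68 (unadjusted p = 0.0258 and adjusted p = 0.263 by limma) and no overlap. *H2-K1* (-0.06), *H2-D1* (-0.14) and *Tap1* (0.19) overlapped between groups. For comparison with another abundant complex, the 8 chaperonin CCT genes had log2 fold changes from 0.02 to 0.37 and a median relative value of 0.11, with 0 at an unadjusted p of 0.05.

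Markers of the blastocyst lineages were read beside these results. All 8 trophectoderm markers passed the filter, and they summed, mostly through *Krt8* and *Krt18*, to 3136 to 4746 FPKM in oEV-EMT and 3082 to 4836 FPKM in oEV-ctrl. Of the 8, *Elf5* was higher at an unadjusted p of 0.05, with a log2 fold change of 0.67 (unadjusted p = 0.0288 by limma). The others did not pass, with *Eomes* at -0.39, *Gata3* at -0.26, *Krt8* and *Krt18* at -0.02, *Tfap2c* at 0.04, *Cdx2* at 0.07 and *Tead4* at 0.22. The median relative value of the trophectoderm markers was -0.16. The 6 epiblast markers summed to 106 to 145 FPKM in oEV-EMT and 56.9 to 102 FPKM in oEV-ctrl, without overlap, and 3 of them (*Pou5f1*, *Nanog* and *Fgf4*) were higher at an unadjusted p of 0.05, with log2 fold changes of 0.97, 1.11 and 0.99, beside 12.8% of all genes. The other 3 epiblast markers did not pass, with *Tdgf1* at 0.32, *Klf2* at 0.07 and *Sox2* at -0.32. The 6 primitive endoderm markers summed to 40.1 to 66.0 FPKM and 39.4 to 46.5 FPKM, with *Gata4* (0.82) and *Sox17* (0.95) higher. The groups overlapped in *Sox17*, at 1.09 FPKM in oEV-EMT 3 and 1.45 FPKM in oEV-ctrl 1. The other primitive endoderm markers did not pass, with *Sox7* at 0.52, *Lama1* at 0.33, *Pdgfra* at 0.08 and *Gata6* at -0.19. Thus 2 of these 6 and 1 of the 8 trophectoderm markers were higher at this threshold. The part of the epiblast and primitive endoderm markers in the *Psm* differences was not tested. Of the blood and immune markers, whose cells use the immunoproteasome, *Ptprc* and *Hbb-bs* were listed at 0 in all libraries, and the 6 genes summed to 1.58 to 4.21 FPKM in oEV-EMT and 1.06 to 1.998 FPKM in oEV-ctrl. *Hba-a1* ranged from 0.472 to 2.22 FPKM, and *Cd52* and *Lyz2* did not exceed 0.537 FPKM. *Cd74* had 0.314, 1.81 and 0.395 FPKM in oEV-EMT and 0.0362, 0.236 and 0.332 FPKM in oEV-ctrl. The part of blood and immune cells in the *Psm* differences was not tested. Of 8 cumulus and oviduct markers 4 were at 0 (*Ptx3*, *Amh*, *Foxj1* and *Cyp19a1*) and none exceeded 0.344 FPKM, and the 6 sperm markers, with *Tnp1* and *Akap4* at 0, summed to 0.472 to 3.40 FPKM.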

How the data were processed

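RNA of 6 pools of 10 blastocysts was sequenced, 3 pools per group. Per the labels, poly(A) RNA was selected and libraries were made with random hexamers. The authors aligned reads to the mouse genome (mm10 in the submitters' processing notes), assembled transcripts with StringTie and deposited 1 FPKM value per gene and library. Although TPM is the unit named in the methods, TPM would sum to 1000000 in each library, whereas the sums here were higher and unequal, so that FPKM was assumed. The aligner and the strand setting are not given in the sources used here. The deposited table holds 55774 rows, of which 287 are unannotated, and 55141 identifiers matched GENCODE M21.

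The members, classes and lists were chosen with earlier results of these data known. Genes with at least 1 FPKM in at least 3 libraries were fitted as log2(FPKM + 1) with limma 3.58.1 in R 4.3.3 (trended, robust variance). The adjustment was by Benjamini-Hochberg over all of them. Fold changes on this scale understate those of low genes. The ratios of catalytic subunits were compared by exact permutation tests in Python 3.11.15. The fit was tested on simulated data. Values are given per library for the catalytic pairs, for the member of highest and of lowest mean in each class and for those at an unadjusted p of at most 0.05. Further members were added after their values were seen. Depth per FPKM was read from the lowest values of 7021 genes with 1 transcript of over 1500 bases, where 150 bases were taken off the length, and differed 2.08 times between the deepest and the shallowest library. Alternatives covered scaling, pseudocount, filter, variance model, weights, block, protein-coding rows only (added after the data were seen) and leaving out each library. Single values of a few listed genes are not reported here.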

Additional observations from a re-analysis of the deposited data

How the results depend on the processing

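With 3 libraries per group and 0 genes past the adjusted threshold, the differences of single members rest on unadjusted p-values. The count of members higher at an unadjusted p of 0.05, 5 as reported, was 3 under median-of-ratios scaling, 9 with a total of 1000000, 3 under upper quartile scaling, 11 with limma arrayWeights, 8 when protein-coding genes alone were fitted, and 4 to 9 when each library was left out in turn, the 9 coming without oEV-EMT 1. The shares of all tested genes moved as well, from 12.8% to 6.47%, 16.7%, 4.49%, 18.4% and 13.1% under these settings in turn and to between 7.88% and 13.9% leaving out libraries. Members lower, 0 as reported, were 3 under upper quartile scaling, 1 with arrayWeights and 0 to 1 leaving out libraries. The shares of all tested genes lower were 8.13%, 5.0% and between 1.69% and 4.84% under these settings, in place of 2.55%. Members with all oEV-EMT values above all oEV-ctrl values, 8 as reported, were 4, 16 and 3 under the same 3 scalings, beside 9.81%, 23.2% and 7.41% of all genes in place of 18.1%, and below them 2 under median-of-ratios and 4 under upper quartile scaling, beside 10.3% and 12.6%. Over all genes, arrayWeights called 104 and leaving out libraries 0 to 17, the 17 without oEV-ctrl 3. The same-numbered libraries did not deviate together (correlations 0.119, -0.04 and 0.04), so the numbers were not taken as pairs, and with a replicate block 21 genes were called while the counts of members stayed at 5 and 0.

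Without the filter the median relative log2 fold change was 0.19 for all members, 0.19 for the constitutive β ring and 0.23 for the activators, and with arrayWeights it was 0.10 for the base and for the regulatory particle. Leaving out libraries moved the constitutive β ring between -0.055 and 0.16, the core between -0.15 and 0.0030, the regulatory particle between -0.11 and 0.014, the α ring between -0.33 and -0.03, the base between -0.11 and 0.02 and the lid between -0.09 and 0.12, and without the filter the core was 0.012. The sign turned in members with small differences. *Psmc6* went to -0.15 and -0.22 under median-of-ratios and upper quartile scaling and lay between -0.075 and 0.15 leaving out libraries, *Psma1* went to 0.083 and *Psmb2* to 0.039 with the fixed total and between -0.17 and 0.16 and between -0.21 and 0.078 leaving out libraries, and under upper quartile scaling *Psmb6* was -0.024, *Psmd2* -0.014 and *Psmc3ip* -0.030. The cause was not tested. With arrayWeights *Psmb9* (1.44) and *Psmg1* (0.89) had an adjusted p of 0.0399 by limma, and over their other alternatives neither passed. *Psmb9*, *Psmg1* and *Psmd13* kept an unadjusted p under 0.05 under each scaling and without each library, with log2 fold changes of 0.90 to 1.31, 0.70 to 0.98 and 0.67 to 1.04 leaving out libraries, and *Psmb10* and *Psmd9* did not.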
